A study of Macaca mulatta with 6 samples.

Results

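Sparse tiles are stretches of 1000 bases that hold 1 to 4 CpGs, sites where a cytosine is followed by a guanine, and that lie well away from any dense cluster of CpGs. They were chosen from positions alone, without any methylation value. The autosomes were cut into non-overlapping tiles of 1000 bases counted from base 1. A tile was kept if it held 1 to 4 listed CpGs and if no part of it lay within 2000 bases of a CpG run, meaning at least 40 CpGs in a row with no interval above 50 bases between neighbours. CpGs whose neighbours on both sides were more than 500 bases away were then left out, and with them the tiles that had no other CpG. This gave 594421 sparse tiles out of 2543398 autosomal tiles with a listed CpG, or 23.4%, and out of 2686702 such tiles in the whole table.

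The series measured DNA methylation by bisulfite sequencing in peripheral blood mononuclear cells, the lymphocytes and monocytes that a Ficoll gradient separates from blood. The animals were 6 adult female rhesus macaques (Macaca mulatta), 3 labelled high-ranking (rank 1) and 3 labelled low-ranking (rank 5). The labels name no other treatment or genotype, and the question behind the design is how methylation relates to social rank. The deposited table ties none of its columns of values to an animal or a rank group, so no methylation level, depth or rank comparison is given here, and every result below is about where the CpGs lie.

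In mammalian genomes most CpGs carry methylated cytosines. A methylated cytosine that loses its amino group becomes thymine, which DNA repair recognises less readily than uracil, and over evolutionary time this has removed CpGs from most of the genome. CpG islands, dense clusters often found at gene starts and mostly unmethylated, escaped much of that loss. Sparse tiles are the opposite extreme, and in whole-genome bisulfite data each of them offers few sites at which methylation can be read. The listed CpGs may be a selection of those in the genome, and a tile called sparse here is sparse in listed CpGs. How many further CpGs such a tile holds was not tested.

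Sparse tiles covered 594 Mb and held 1757717 CpGs after the exclusions, 6.81% of the 25805743 listed on autosomes. Of 628031 autosomal tiles with 1 to 4 CpGs, 4547 (0.724%) were left out for lying near a CpG run. A further 29063 were left out because every CpG in them was far from its neighbours. Another 27495 sparse tiles lost 1 CpG each to that exclusion and kept at least 1. The exclusion near runs therefore removed few tiles, and the sparse set was nearly the whole class of tiles with 1 to 4 CpGs.

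Most sparse tiles lay near the upper limit of the class. Those with 4 listed CpGs numbered 224503 (37.8%) and those with 3 numbered 191779 (32.3%). Those with 2 numbered 133724 (22.5%) and those with a single CpG numbered 44415 (7.47%). These numbers are without the 29063 tiles in which every CpG was far from its neighbours. Just outside the limit, 228565 tiles away from runs held 5 CpGs, so the number of tiles did not drop at the limit. In the 1000 bases just outside the excluded zone around runs there were 3276 tiles with 1 to 4 CpGs that met the other conditions, and in the 1000 bases just inside it there were 2942.

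Where a tile begins decides in part whether it is sparse. When all tiles were shifted by 500 bases, 163814 sparse tiles (27.6%) overlapped 2 sparse tiles of the shifted set, 292549 (49.2%) overlapped 1 and 138058 (23.2%) overlapped none. Their total number hardly moved, at 593869 after the shift. Which single tiles were sparse thus depended on where the tiles began, and their number did not.

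Autosomes differed widely in their share of sparse tiles. The share was highest on chromosome 5, where 55909 tiles were sparse, 31.8% of the tiles with a listed CpG. Chromosomes 12 and 6 followed at 28.2% each. The lowest shares were 12.0% on chromosome 20, 10.9% on chromosome 16 and 7.27% on chromosome 19, where 3643 tiles were sparse. The highest share was 4.37 times the lowest.

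The 20 shares had a gap in the middle. Chromosomes 10, 20, 16 and 19 all lay at or below 12.2%, and the next autosome, chromosome 9, was at 20.1%. The median over autosomes was 23.2%. The share of tiles with 5 to 19 CpGs away from runs, the class next to the sparse tiles, ranged from 51.1% to 66.7%, which is 1.31-fold. A share that starts lower can span more folds, so the difference between these ranges was not tested.

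**Figure D1:**
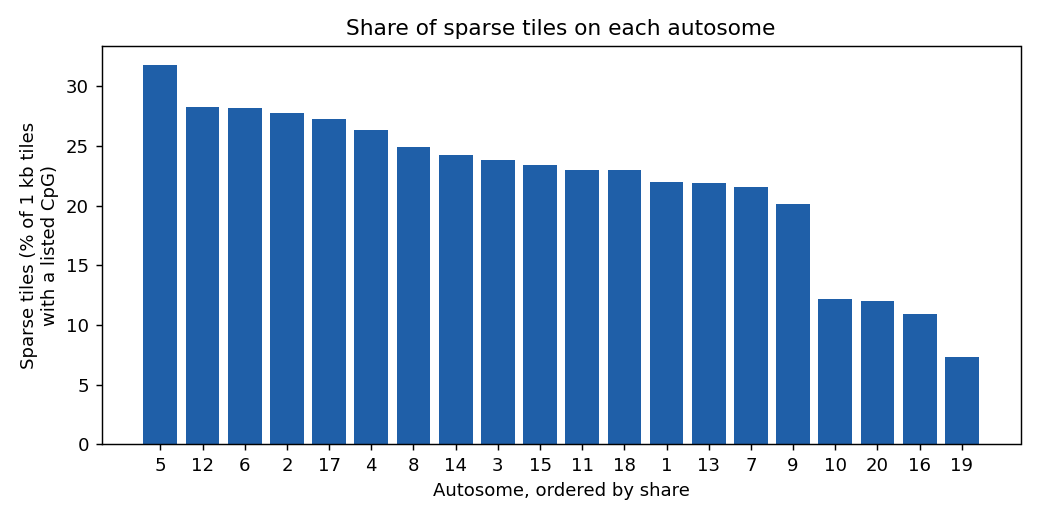
Bars show sparse tiles as a percentage of the 1 kb tiles with a listed CpG on each of the 20 autosomes, in order of that share. Chromosome 5 stands highest at 31.8%, and chromosomes 10, 20, 16 and 19 form a separate low group at 12.2% or less.

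The rule confines the number of CpGs in a sparse tile to 1 to 4, so its mean could vary little between autosomes. The mean number of CpGs per sparse tile, after the exclusions, ranged from 2.93 on chromosome 5 to 3.04 on chromosome 20. Tiles with a single CpG made up 7.09% to 9.99% of the sparse tiles of an autosome, with the highest value on chromosome 19. Chromosome 19 thus had the smallest share of sparse tiles and, within them, the largest share of tiles with a single CpG. The rule also shapes this share, because a tile whose single CpG was far from both neighbours was left out. How far that exclusion raised or lowered the value of an autosome was not tested.

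A sparse neighbour was more frequent beside a sparse tile than beside a tile with 5 to 19 CpGs. Of the tiles directly beside a sparse tile, 35.5% were sparse, against 21.9% of all tiles over the span of the autosomes. Of the tiles beside a tile with 5 to 19 CpGs, 21.1% were sparse. The share beside sparse tiles was the higher of these on 20 of 20 autosomes. It ranged from 19.8% on chromosome 19 to 39.1% on chromosome 5, the autosomes with the lowest and the highest share of sparse tiles.

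The other neighbours of sparse tiles were mostly tiles with 5 to 9 CpGs, at 42.4%, and 10 to 19 CpGs, at 14.7%. The densest tiles, with at least 40 CpGs, were 0.0440% of the neighbours, where the rule itself keeps most of them away, against 1.42% of all tiles. Tiles with no listed CpG made up 2.27% of the neighbours of sparse tiles and 1.19% of those of tiles with 5 to 19 CpGs, but 6.14% of all tiles. Empty tiles inside longer stretches without a listed CpG count among all tiles and have no neighbour with a CpG. The 10 tiles around a sparse tile, 5 on either side, held a median of 63 CpGs (quartiles 51 and 80), against 84 (quartiles 63 and 116) around a tile with 5 to 19 CpGs.

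The tendency to lie together reached far beyond the adjoining tile. At 2 kb from a sparse tile 33.8% of the tiles were sparse, at 10 kb 31.6%, at 100 kb 30.2% and at 1000 kb 27.8%. From a tile with 5 to 19 CpGs the share stayed between 21.1% and 22.1% over the same distances. At each of the 10 distances examined the share was higher from a sparse tile on 20 of 20 autosomes. Differences between autosomes add to the pooled shares at every distance, and the counts within autosomes do not contain them.

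**Figure D2:**
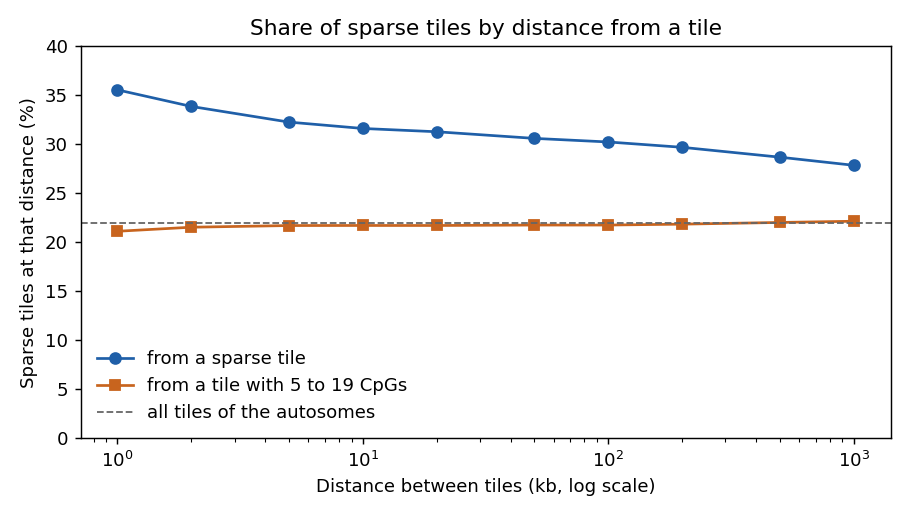
Percentage of tiles that are sparse (vertical axis) at a given distance in kb (horizontal axis, log scale) from a sparse tile (circles) or from a tile with 5 to 19 CpGs (squares), with the share among all autosomal tiles as a dashed line at 21.9%. The circles fall from 35.5% at 1 kb to 27.8% at 1000 kb and stay above the squares throughout.

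Unbroken stretches of sparse tiles were mostly short. There were 383275 of them, counting a lone tile as a stretch, and 43.0% of the sparse tiles had no sparse tile beside them. Stretches of 5 tiles or more numbered 8373 and held 8.18% of the sparse tiles. Stretches of 10 tiles or more numbered 164, with 24 on chromosome 6, 22 on chromosome 5 and 19 on chromosome 2. None was found on chromosomes 16, 19 and 20, and 1 on chromosome 10. Chromosomes 6, 5 and 2 had 48443, 55909 and 50864 sparse tiles, and chromosomes 16, 19 and 20 had 7939, 3643 and 8550. The counts of stretches were not adjusted for these numbers.

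The longest stretches covered 17 kb, once on chromosome 8 from base 49279001 to 49296000 and once on chromosome 15 from base 89129001 to 89146000. The longest stretch covered 20 kb when the tiles were shifted by 500 bases, and 32 kb with tiles of 2 kb holding 1 to 8 CpGs. The stretch on chromosome 8 held 47 listed CpGs. Tile by tile along it, the counts were 4, 2, 4, 2, 2, 2, 3, 2, 4, 1, 2, 2, 4, 4, 3, 3 and 3. The flanking tiles held 7 and 8 CpGs, so the stretch ended in tiles of modest density and not at a CpG cluster. Its longest interval between neighbouring CpGs was 1285 bases.

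The stretch on chromosome 15 held 50 CpGs, at 2.94 per kb, between flanking tiles with 5 CpGs each, and lay 842 kb from the nearest CpG run. Its counts were 4, 4, 3, 4, 2, 4, 4, 1, 2, 3, 3, 4, 3, 2, 2, 3 and 2. The next longest covered 15 kb of chromosome 5, from base 40430001 to 40445000, and held 43 CpGs. It lay 563 kb from the nearest run, and that on chromosome 8 lay 200 kb from one. The 3 stretches held between 2.76 and 2.94 CpGs per kb. Coordinates follow the table, for which no source used here names a genome build, and no position was assigned to a gene.

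Sparse tiles were unevenly spread at the scale of megabases. In 2449 windows of 1 Mb with at least 900 tiles holding a listed CpG, the median share of sparse tiles was 23.3%, the 10th percentile was 7.19% and the 90th was 41.7%. The highest share, 50.8%, was found on chromosome 5 from base 126000001 to 127000000, with 483 sparse tiles of 950. The window on chromosome 4 from base 74000001 to 75000000 also reached 50.8%, and that on chromosome 7 from base 103000001 to 104000000 reached 50.5%. These 3 windows held 5161, 4790 and 5260 listed CpGs and 1, 1 and 0 CpG runs.

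At the other extreme, the window on chromosome 15 from base 1000001 to 2000000 had 7 sparse tiles of 953, or 0.735%. The first 2 windows of chromosome 20, from base 1 to 1000000 and from base 1000001 to 2000000, had 0.752% and 0.857%. These 3 windows held 31941, 29330 and 31447 CpGs and 78, 63 and 86 runs, and all of them lay within 2 Mb of the start of a chromosome. Windows with at least 40% sparse tiles numbered 319 of the 2449. Chromosome 5 had 49 among its 177 windows, chromosome 4 had 33 among 160 and chromosome 12 had 23 among 100. Chromosomes 10, 16, 19 and 20 had 0 among 86, 60, 28 and 69 windows. The 319 windows held a median of 1 CpG run, and 158 of them held none. The 126 windows with under 5% sparse tiles held a median of 23.

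Sparse tiles became more frequent with distance from CpG runs, well beyond the 2000 bases that the rule sets. Between 2 and 5 kb from the nearest run, 11.7% of the tiles with a listed CpG were sparse. The share was 14.6% at 10 to 20 kb, 20.9% at 50 to 100 kb, 31.5% at 200 to 500 kb and 39.8% at 1000 kb or more. It was higher at each step outward than at the one before.

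The same direction was seen within each chromosome. On 20 of 20 autosomes the share of sparse tiles was higher over 200 kb from a run than at 2 to 20 kb from one. On chromosome 5 the shares were 38.2% and 22.6%, and on chromosome 19 they were 17.9% and 5.55%. The median distance from a sparse tile to the nearest run was 183 kb, with quartiles of 62.0 and 457 kb. For tiles with 5 to 19 CpGs the median was 93.7 kb, and it was shorter than that of sparse tiles on 20 of 20 autosomes.

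**Figure D3:**
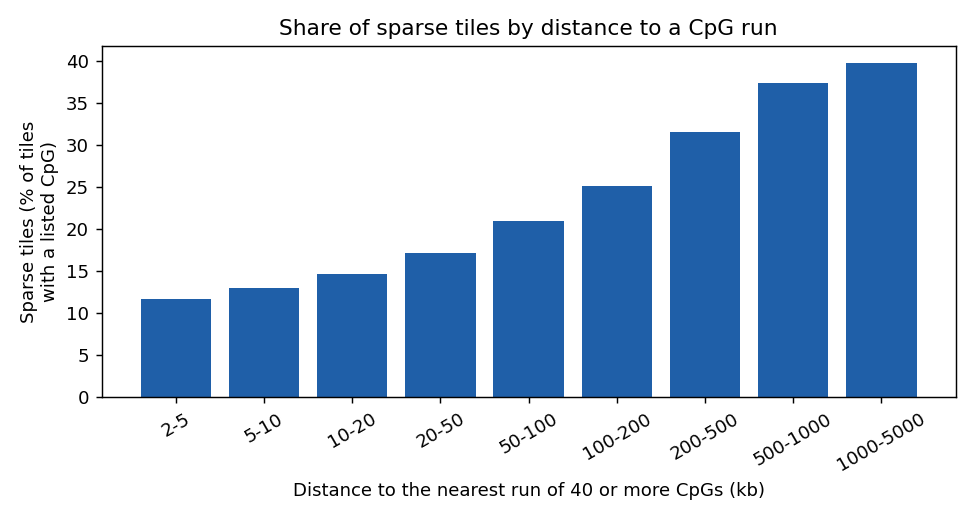
Bars show sparse tiles as a percentage of tiles with a listed CpG, by distance in kb from the nearest run of 40 or more CpGs, over all autosomes. The share rises from 11.7% at 2 to 5 kb to 39.8% at 1000 kb or more.

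Sparse tiles were scarce near the ends of the chromosomes. Within 1 Mb of the first or last listed CpG of an autosome, 6.37% of the tiles were sparse. The share was 9.15% at 2 to 5 Mb, 14.0% at 5 to 10 Mb, 18.5% at 10 to 20 Mb and 28.0% at 30 Mb or more. On 20 of 20 autosomes it was lower within 5 Mb of an end than farther in. This also held on 20 of 20 autosomes when the tiles within 2000 bases of a run were taken out of the whole.

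Distance from an end and distance from a run were linked, since many ends held numerous runs. Each was therefore examined with the other limited to a range. The ranges over 200 kb and of 30 Mb or more have no upper limit, so distances can still differ within them. At 30 Mb or more from an end, sparse tiles made up 18.0% of the tiles 2 to 20 kb from a run and 37.9% of those over 200 kb from a run. The increase with distance from runs was therefore present in the interior of the chromosomes as well. Conversely, among tiles 2 to 20 kb from a run, 5.85% were sparse within 5 Mb of an end and 14.9% farther in, with the lower share near the ends on 20 of 20 autosomes. Among tiles over 200 kb from a run the shares were 18.1% and 34.8%, and the share near the ends was the lower on 16 of the 17 autosomes with at least 100 such tiles in both zones. The exception was chromosome 12, at 37.9% near the ends and 37.4% farther in.

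**Figure D4:**
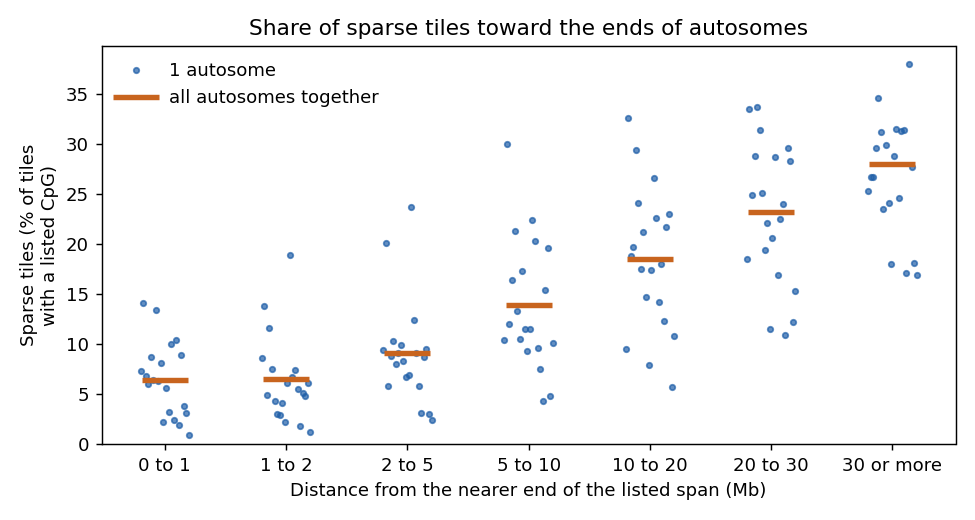
Points give, for each autosome, sparse tiles as a percentage of tiles with a listed CpG at the stated distance in Mb from the nearer end of its listed span, and horizontal bars give the share over all autosomes together. The bars rise from 6.37% within 1 Mb of an end to 28.0% at 30 Mb or more, and chromosomes 2 and 12 supply the highest points at 2 to 5 Mb, with 20.1% and 23.7%.

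A single chromosome end did not follow this pattern. Of the 40 ends, each taken as 5 Mb, the share of sparse tiles was above that of the whole autosome at 1, the start of chromosome 12. There 38.0% of the tiles were sparse, against 28.2% over the chromosome, and the 5 Mb held 3 CpG runs. This end had 3944 tiles with a listed CpG. Within 1 Mb of either end of chromosome 12 there were only 842 such tiles, and 3.21% of them were sparse. The other end of chromosome 12 had 5.58% and 95 runs. The start of chromosome 2 came next, at 25.6% with 11 runs, still below the 27.8% of that chromosome. The median over the 40 ends was 6.90% and the lowest was 1.53%, at the start of chromosome 20, which held 265 runs. The start of chromosome 12 and that of chromosome 2 were singled out after their values had been seen.

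The median interval between neighbouring CpGs of a sparse tile was 163 bases, against 51 in tiles with 5 to 19 CpGs. This difference follows from the number of CpGs that a tile may hold. Among sparse tiles the median was 230 bases in those with 2 CpGs (quartiles 98 and 404), 183 in those with 3 and 144 in those with 4. Medians per autosome ran from 126 bases on chromosome 19 to 167 on chromosome 2. Very short intervals, up to 10 bases, accounted for 3.84% of those in sparse tiles and 13.6% in tiles with 5 to 19 CpGs.

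Even spacings were less frequent in sparse tiles than in tiles with 5 to 19 CpGs. Among spacings of 2 to 99 bases, 50.9% were an even number of bases in sparse tiles, against 54.2% in tiles with 5 to 19 CpGs. The share was the lower in sparse tiles on 20 of 20 autosomes.

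The spacing of 8 bases had the highest ratio to its neighbours among short spacings in sparse tiles and in the next class. Each spacing was compared with the median frequency of the spacings next to it, up to 8 below and 8 above, and counted as over-represented where its ratio to that median exceeded 1.3. Of the 98 spacings from 2 to 99 bases, 0 passed in sparse tiles and 3 passed in tiles with 5 to 19 CpGs. Those 3 were spacings of 4, 8 and 32 bases, at 1.42, 1.72 and 1.38. In sparse tiles the same spacings had ratios of 1.002, 1.28 and 1.09. The difference between the classes was not tested.

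The highest ratios in sparse tiles, named after their values had been seen, were at spacings of 8, 49 and 258 bases. CpGs 49 bases apart were found 5169 times, a ratio of 1.26, while in tiles with 5 to 19 CpGs its ratio was 0.956. That of 258 bases occurred 2284 times, at a ratio of 1.29 against 1.11 in the other class. That of 127 bases had ratios of 1.198 and 1.07. The ratio at 49 bases was above 1 on 18 of 20 autosomes, with chromosomes 10 and 16 below it at 0.952 and 0.891, and the ratio at 8 bases was above 1 on 20 of 20.

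**Figure D5:**
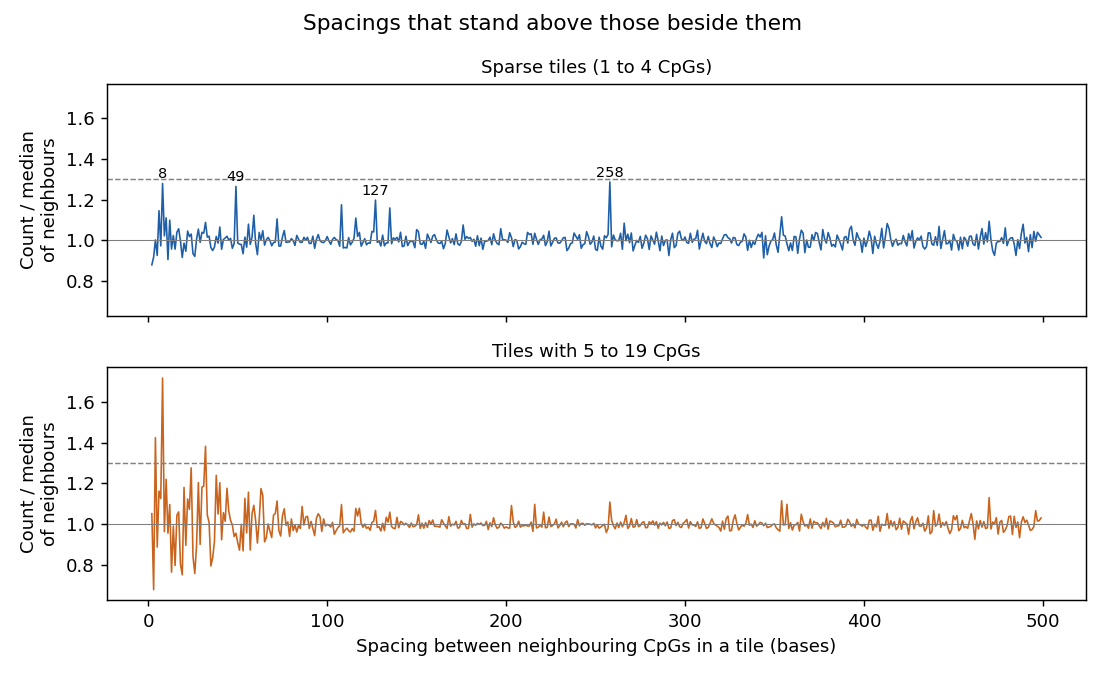
Count of each spacing between neighbouring CpGs of a tile, divided by the median count of the spacings beside it, for spacings of 2 bases to under 500 bases in sparse tiles (upper panel) and in tiles with 5 to 19 CpGs (lower panel), with a dashed line at 1.3. Spacings of 8, 49 and 258 bases come close to the line in sparse tiles, while in the lower panel 4, 8 and 32 bases pass it.

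A minority of the spacings of 127 and 258 bases in sparse tiles lay beside one of 49 bases. Of the 3448 spacings of 127 bases, 367 (10.6%) had one of 49 bases directly before or after them. Of the 2284 spacings of 258 bases, 340 (14.9%) did. The most frequent pair of successive spacings within a sparse tile was 127 and 49 bases, found 186 times, followed by 258 and 49 bases, found 169 times. The same pairs in reverse order were found 168 and 159 times. Among sparse tiles with 4 CpGs, the most frequent set of 3 spacings was 258, 49 and 127 bases, found 65 times, and the second was its mirror image, 127, 49 and 258 bases, found 64 times. The next, 49, 258 and 135 bases, was found 26 times and its mirror image 23 times, and it shares the first pair.

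An example on chromosome 1 shows the arrangement of 258, 49 and 127 bases. The tile from base 8085001 to 8086000 held listed CpGs at bases 8085215, 8085473, 8085522 and 8085649, which are 258, 49 and 127 bases apart. The tile of the same chromosome from base 99004001 to 99005000 held CpGs at bases 99004493, 99004620, 99004669 and 99004927, the same spacings in reverse. In both, the 4 CpGs span 434 bases. These are the first occurrences of each order in sparse tiles along the autosomes.

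This arrangement was found in both orders together in 129 sparse tiles, on 18 of 20 autosomes, with none on chromosomes 19 and 20. Chromosomes 19 and 20 had 3643 and 8550 sparse tiles, and 3 and 9 occurrences over all their listed positions. Chromosome 8 had the most in sparse tiles, 13, among 34483 such tiles. Whether autosomes differ in this rate was not tested. Over all listed autosomal positions it was found 670 times, 329 in one order and 341 in the other, on 20 of 20 autosomes. The arrangement was chosen for being the most frequent in sparse tiles, so its rate there is a description and its comparison with another class is no independent evidence. In tiles with 5 to 19 CpGs, a larger class, the first order was found 124 times and its mirror image 131 times. These counts exceeded the 65 and 64 in sparse tiles. Per 10000 sets of 3 successive spacings within a tile, the first order was found 2.96 times in sparse tiles. The rate in the other class was 0.120. The sets numbered 219600 in sparse tiles and 10348725 in tiles with 5 to 19 CpGs. The single spacings also differed in frequency between the classes. A spacing of 258 bases made up 0.196% of the spacings in sparse tiles and 0.0701% in the other class, one of 127 bases made up 0.296% and 0.234%, and one of 49 bases made up 0.444% and 0.596%. Their part in the difference was not tested.

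A part of the spacings of 49 bases lay beside one of the other 2, and a smaller part belonged to the full arrangement, found in 129 sparse tiles. Of the 5169 in sparse tiles, 619 (12.0%) had a spacing of 127 or 258 bases directly before or after them, also across the border of the tile. In tiles with 5 to 19 CpGs this was so for 1750 of 80750, or 2.17%. Such spacings lay on 20 of 20 autosomes in sparse tiles. Without those 619, the remaining 4550 were 1.11 times the median of the neighbouring spacings, against 1.26 with them. No sequence in the coordinates of the table was used here, so whether these sites belong to copies of a repeated element was not tested.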

How the data were processed

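The authors deposited a single table in BED layout without a header. Bismark, which aligns bisulfite reads and calls methylation, is listed without a version in the submitters' processing notes. Genome build, annotation and site filters: not given in the sources used here. Of its 15 columns, 3 (chromosome, start, end) were used. The other 12 carry no names, could not be matched to an animal and were not used. The labelled groups entered no comparison, and no test was run. Counts are complete counts of listed positions, with no replicate error, so agreement across autosomes is given instead. Autosomes are not replicates.

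Tiles were classed by all their listed CpGs before CpGs with both neighbours over 500 bases away were left out. The first and last CpG of a chromosome were kept. Tiles with 5 to 19 CpGs followed the same rule on runs. Regions named are the 3 autosomes with the highest and the 3 with the lowest share, the 3 longest stretches, and the 3 highest and 3 lowest windows of 1 Mb. The members and these rules were chosen with earlier results of these data known. Several analyses were added after the positions had been examined. They were those of chromosome ends, distance bins, chromosome ends within ranges of distance from runs, stretches of 10 tiles, even spacings and recurring spacings. The software was Python 3.11.15, scipy 1.17.1, pandas 2.3.3, numpy 2.4.6 and, for figures, matplotlib 3.10.9. The tile and run computations were tested on simulated positions. Neighbours and stretches were tested on a planted row of tiles, and the ratio of spacings on planted counts. Of the planted quantities, 5 of 5 were recovered. How spacings are read from positions was not tested in this way.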

Additional observations from a re-analysis of the deposited data

How the results depend on the processing

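The setting that changed both the tile size and the CpG limit moved the number of tiles by over 1.5 times. Tiles of 2 kb are fewer over the same length, which by itself lowers their number. With tiles of 2 kb holding 1 to 8 CpGs, sparse tiles numbered 217851 and made up 16.9% of the tiles. Their neighbours were sparse in 31.6%, the range across autosomes was 5.40-fold, the median spacing was 165 bases and the median distance to a run was 216 kb. With 5000 bases in place of 2000 from a run, the share was 23.0%, the neighbours 35.7%, the range 4.65-fold, the spacing 164 bases and the distance 189 kb. With isolated CpGs kept, these values were 24.5%, 38.3%, 4.46-fold, 169 bases and 185 kb. With isolated CpGs removed before counting, the share was 23.7%, the neighbours 35.7%, the range 4.43-fold and the spacing 162 bases. With shifted tiles the neighbours were 35.4%, the range 4.33-fold and the spacing 164 bases. The number of over-represented spacings was 0 in each of these settings. It was 2 with a limit of 1.2, chosen after seeing the data. Also chosen after seeing them, the share was 24.3% of the tiles over 2000 bases from a run, and neighbours were sparse in 36.3% when those without a listed CpG were left out. In the tiles of 2 kb the share within 5 Mb of an end was 4.91% in place of 8.10%, the pairs of 49 and 127 bases numbered 186 in place of 354 and those of 49 and 258 bases 153 in place of 328, in both orders together. The ratio at 49 bases fell from 1.26 to 1.11 in tiles of 2 kb and to 1.23 in shifted tiles. Apart from the effect of tile length on the number of tiles, the cause of these shifts was not tested. No paired analysis was possible because no column of values could be tied to an animal.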
